A study of Mus musculus with 12 samples.

Results

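Transcripts of the cone phototransduction cascade were followed in the retinal pigment epithelium (RPE) of wild-type (WT) and rd6 mice. The genes were chosen by symbol, and all 10 were found among the 28591 genes of the table: the opsins *Opn1sw* and *Opn1mw*, the arrestin *Arr3*, the transducin subunits *Gnat2*, *Gnb3* and *Gngt2*, the phosphodiesterase subunits *Pde6c* and *Pde6h*, and the channel subunits *Cnga3* and *Cngb3*. WT mice were C57BL/6J and rd6 mice were *Mfrp* rd6/rd6, homozygous for a mutation that alters the splicing of *Mfrp*, a membrane protein gene of the RPE. All mice were 1 mo old, both sexes were used, and each of the 6 libraries per genotype came from the RPE of both eyes, pooled after the anterior segment and the neural retina had been taken off the eyecup. The question of the experiment was what the loss of MFRP changes in the RPE transcriptome. The cone genes bear on it as transcripts of another cell type, and *Cngb3* was singled out among them with its change already known.

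Cones serve daylight and color vision, and their light response runs through a G-protein cascade. A photon activates a cone opsin, the opsin activates transducin, and the freed transducin alpha subunit relieves the inhibitory subunit of phosphodiesterase 6, so that the catalytic subunit hydrolyzes cGMP and the cGMP-gated cation channel of the outer segment closes. Cone arrestin then binds the phosphorylated opsin and ends its activity. Rods use a parallel cascade built from paralogous genes, and the RPE, which faces both outer segment types, phagocytoses their shed tips and recycles the chromophore.

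The promoters are shown for *Opn1sw*, *Arr3* and *Pde6h*, whose levels, with those of *Opn1mw*, rose and fell together across libraries as described below. Each run is the 250 bases before the RefSeq start of the gene on the GRCm38.p6 assembly, on the strand of the gene, and capitals mark TAATC or its reverse complement GATTA, the core recognized by the photoreceptor homeodomain factor CRX and its relatives, searched on both strands. *Opn1sw* lies at chr6:29380514-29380763 (minus strand), *Arr3* at chrX:100605247-100605496 (plus strand) and *Pde6h* at chr6:136954273-136954522 (plus strand).
Opn1sw: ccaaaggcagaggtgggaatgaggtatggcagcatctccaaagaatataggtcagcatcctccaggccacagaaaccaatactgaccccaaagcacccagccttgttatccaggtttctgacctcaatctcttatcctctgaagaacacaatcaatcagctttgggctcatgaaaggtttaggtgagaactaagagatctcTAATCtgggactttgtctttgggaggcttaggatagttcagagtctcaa
Arr3: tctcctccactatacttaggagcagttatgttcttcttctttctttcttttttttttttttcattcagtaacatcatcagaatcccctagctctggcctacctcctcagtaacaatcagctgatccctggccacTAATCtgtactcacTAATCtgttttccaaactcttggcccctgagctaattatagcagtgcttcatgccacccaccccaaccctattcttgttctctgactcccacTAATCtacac
Pde6h: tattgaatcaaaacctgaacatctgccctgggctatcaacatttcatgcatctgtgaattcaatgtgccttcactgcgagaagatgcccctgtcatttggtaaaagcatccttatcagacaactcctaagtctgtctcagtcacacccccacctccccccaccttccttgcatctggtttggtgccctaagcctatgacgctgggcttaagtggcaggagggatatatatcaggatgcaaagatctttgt
The *Opn1sw* window has 1 match, 49 bases before the start, the *Arr3* window has 3, the nearest 10 bases before the start, and the *Pde6h* window has 0. Of 32841 promoter windows of the same length, 19.8% hold at least 1 match and 3.28% hold 2 or more. A match is a run of letters and not a measured binding site. The windows of *Opn1mw* (0 matches), *Gnat2* (1) and *Cnga3* (0 in both of its entries) were searched but are not printed, since that of *Opn1mw*, that of *Gnat2* and the first of *Cnga3* reach into an annotated exon of the gene. The RefSeq table had an entry for 6 of the 10 genes, and *Cngb3*, *Gnb3*, *Gngt2* and *Pde6c* were not among them.

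The libraries held between 28907262 and 33152725 reads on genes, and 3 reads correspond to 2.71 to 3.32 normalized counts, the unit used here (reads divided by the size factor of the library). *Mfrp* was lower in every rd6 library (20442 to 29732) than in any WT library (30132 to 45442), and because the values are per gene they do not resolve its spliced forms. The tissue label was met by *Rpe65*, the retinoid isomerase of the RPE, at 131906 to 193458 in WT and 74330 to 131800 in rd6, while *Best1*, an RPE chloride channel gene, stayed at 9.33 to 48.7. Rod transcripts were abundant in the same libraries: the sum of 14 rod markers was 65449 to 87764 in WT, 38290 to 43826 in 5 rd6 libraries and 65104 in rd6 replicate 5. Without *Slc24a1*, the most abundant of them, which was lowest of the rd6 group in that library, the sum was 23903 to 48632 in WT, 15122 to 19389 in the 5 rd6 libraries and 46088 in replicate 5. That library was also the highest of the rd6 group for 7 of 8 bipolar cell markers, 7 of 8 amacrine and horizontal cell markers and all 8 retinal ganglion cell markers (sum 3920 against at most 1144 in the other rd6 libraries), and for none of the 12 RPE markers. It was the highest rd6 library for 8 of the 10 cone genes and for 22.7% of all 17768 genes tested, so results for the cone genes and counts of the lists are given with and without it. Since that library was picked for its high values, leaving it out lowers the rd6 level of such genes by construction. In bulk tissue, fewer cells of a type and less RNA per cell cannot be told apart.

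The cone genes did not move as a block. The test was limma over the 17768 genes that averaged 10 normalized counts or more, and a gene was called at a q (the p-value adjusted by the method of Benjamini and Hochberg) below 0.05. Among 8 cone genes, *Cngb3* set aside because it was chosen for its change, *Gnb3* and *Gngt2* were higher in rd6 and *Pde6c* and *Opn1mw* were lower, 4 of 8 beside 23.0% of all genes (11.4% higher and 11.6% lower). All of these but *Gngt2* also passed the fold limit that the study set, 1 upward and 2 downward, as did 4.69% and 2.12% of all genes. The other 4, *Opn1sw*, *Arr3*, *Pde6h* and *Gnat2*, did not pass, and *Cnga3* was too low to be tested. The median log2 fold change of the 8 genes was -0.81, beside 0.00 over all genes. Without rd6 replicate 5, *Gnb3* and *Gngt2* were higher, 5 were lower (*Opn1sw*, *Arr3* and *Pde6h* in addition), and the median was -1.15, beside 10.6% and 11.5% of all genes. *Opn1sw*, *Arr3* and *Pde6h* passed under no other alternative, and leaving out a library picked for its high values favors such calls.

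**Figure D1:**
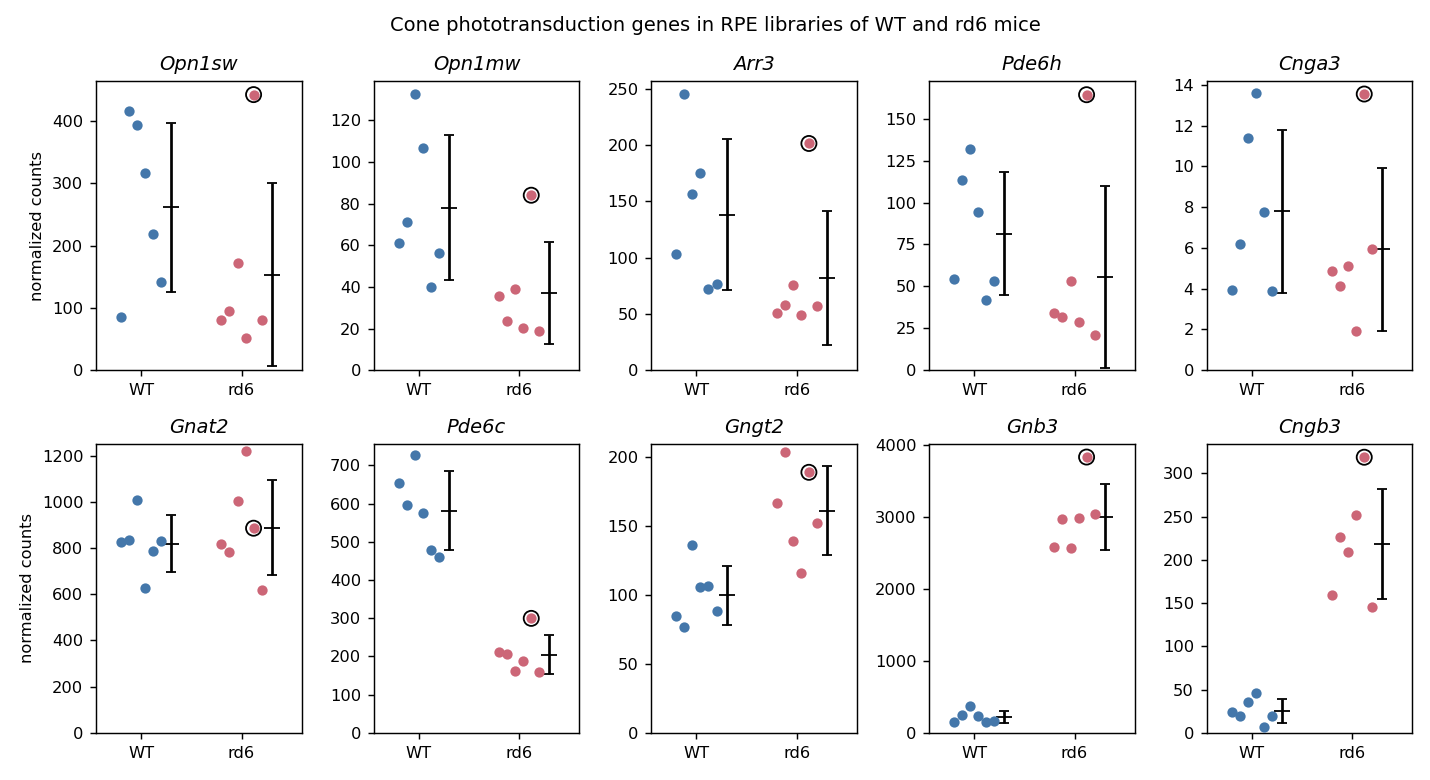
Normalized counts (vertical axes) of the 10 cone genes in the 6 WT (blue) and 6 rd6 (red) libraries, 1 point per library, with the mean ± SD beside each group and rd6 replicate 5 circled in black. In *Gnb3* and *Cngb3* every rd6 point lies above every WT point, in *Pde6c* every rd6 point lies below, and in *Opn1sw*, *Opn1mw*, *Arr3*, *Pde6h* and *Cnga3* the circled library stands clear of the other rd6 points.

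Compared per kb of exon, a scale on which genes can be set side by side, the WT level was highest for *Gnat2* (274 ± 40.8 normalized counts per kb, SD, n = 6), followed by *Pde6c* (196 ± 34.5), *Opn1sw* (102 ± 53.1), *Gnb3* (83.8 ± 33.0), *Arr3* (58.7 ± 28.6), *Gngt2* (53.0 ± 11.4) and *Opn1mw* (49.9 ± 22.4). *Pde6h* (10.4 ± 4.70), *Cngb3* (5.39 ± 2.96) and *Cnga3* (1.97 ± 1.01) were the lowest. In WT the libraries of neighbors in this order overlapped except between *Opn1mw* and *Pde6h*. The *Pde6h* value was divided by an exon union that includes long annotated isoforms, 7846 bases in all, which lowers it. In rd6 the order changed at the top, where *Gnb3* reached 1141 ± 175 and lay clear of *Gnat2* (296 ± 69.0), which lay clear of *Gngt2* (85.7 ± 17.2). *Cngb3* (46.4 ± 13.5) moved up among *Pde6c* (68.9 ± 17.3), *Opn1sw* (60.0 ± 57.6) and *Arr3* (34.7 ± 25.2), and its partner subunit *Cnga3* stayed last at 1.50 ± 1.01. These rd6 levels include replicate 5. Without it the rd6 mean of *Opn1sw* went from 154 to 95.8 normalized counts and that of *Cngb3* from 219 to 198. Per kb, *Cngb3* then lies above *Opn1sw*.

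**Figure D2:**
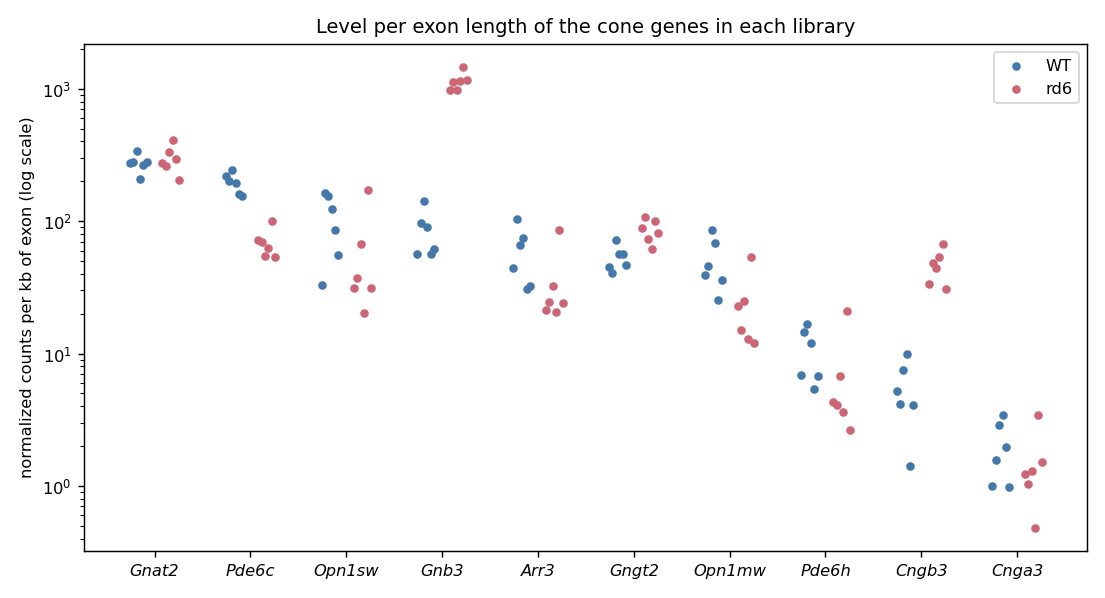
Level of each cone gene in normalized counts per kb of exon (log axis) in the 6 WT (blue) and 6 rd6 (red) libraries, ordered by the WT mean. *Gnb3* rises from the middle of the WT order to the top in rd6, *Cngb3* rises from near the bottom to the middle, and *Cnga3* is last in both genotypes.

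The opsins capture light, *Opn1sw* in the short and *Opn1mw* in the middle wavelengths. *Opn1sw* (ENSMUSG00000058831, chr6:29376671-29388468, minus strand) ranged from 84.8 to 416 in WT (median 267) and from 51.6 to 442 in rd6 (median 87.7). The highest of all 12 values was that of rd6 replicate 5, and the other rd6 libraries reached at most 171, so the genotypes overlapped. The log2 fold change was -0.96 ± 0.51 (SE, limma q = 0.204), and -1.35 ± 0.42 (q = 0.0390) without that library. The gene shares 397 exon bases with *Calu* on the opposite strand, and since the use of strand in counting is not stated, the split of reads between them is uncertain; *Calu* had a log2 fold change of -0.08. *Opn1mw* (ENSMUSG00000031394, chrX:74127464-74150760, plus strand) ranged from 39.9 to 133 in WT (median 66.2) and from 18.9 to 84.0 in rd6 (median 29.8). All rd6 libraries but replicate 5 lay below the lowest WT library. Its log2 fold change was -1.14 ± 0.38 (limma q = 0.0438; exact permutation test, two-sided p = 0.0238), and without replicate 5 it was -1.42 ± 0.31 (q = 0.00721). The call was marginal: it was lost in edgeR (q = 0.0724 to 0.0873 over 3 scalings) and in limma without any single library other than WT replicate 5 or rd6 replicate 5 (q = 0.0558 to 0.0962).

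*Arr3*, which quenches the activated cone opsins, lies at chrX:100605497-100618493 on the plus strand (ENSMUSG00000060890). It ranged from 72.0 to 246 in WT (median 130) and from 48.7 to 201 in rd6 (median 57.2). Of the rd6 libraries, 4 lay below the lowest WT library and only replicate 5 was above 76.0. The log2 fold change of -0.82 ± 0.38 did not pass (limma q = 0.147), and that without replicate 5, -1.12 ± 0.30, did (q = 0.0200). *Opn1mw* and *Arr3* are on the X chromosome, and the libraries with high *Xist* (10783 to 21004, against at most 57.6 in the rest) were 2 of each genotype, WT replicates 3 and 4 and rd6 replicates 1 and 2.

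The 3 transducin genes diverged, with no difference detected for *Gnat2* and *Gnb3* and *Gngt2* higher in rd6. *Gnat2*, the cone alpha subunit (ENSMUSG00000009108, chr3:108092789-108101432, plus strand), ranged from 625 to 1008 in WT (median 829) and from 617 to 1221 in rd6 (median 852). The groups overlapped through nearly their whole range. Its log2 fold change was 0.10 ± 0.15 (limma q = 0.675, 95% confidence interval -0.22 to 0.42), so a fall of the size seen for *Pde6c* or *Opn1mw* lies outside the interval. Its spread between WT libraries, a coefficient of variation (SD over mean) of 14.9%, was also smaller than that of *Opn1sw* (51.8%), *Arr3* (48.7%), *Pde6h* (45.3%) or *Opn1mw* (44.8%).

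*Gnb3*, the beta subunit of cone transducin, which is also known from ON bipolar cells, lies at chr6:124834240-124840275 on the minus strand (ENSMUSG00000023439). It ranged from 149 to 371 in WT (median 199) and from 2567 to 3838 in rd6 (median 2988). Every rd6 library was far above every WT library, a separation in this direction that 5.77% of all genes showed. Fold changes are differences between the means of log2(value + 1) throughout. The rise was 14.2-fold, a log2 fold change of 3.83 ± 0.21 (limma q = 8.41e-08; exact permutation test, two-sided p = 0.00216, the smallest that 6 against 6 libraries allow), and 13.5-fold without replicate 5. It ranked 27 from the top of 17768 genes by log2 fold change. Of 8 bipolar cell markers, with *Prkca* and *Lrtm1* the most abundant, 0 passed in limma, edgeR or DESeq2 and 0 had an unadjusted limma p below 0.05. All 8 had a negative log2 fold change, as did 49.3% of all genes, with a median of -0.26. Without rd6 replicate 5 the median was -0.56 and again 0 passed in limma. Of the genes beside *Gnb3*, *Cdca3* (539 bases away) had a log2 fold change of 0.21 (q = 0.722) and *P3h3* (814 bases away) one of 0.48 ± 0.06 (q = 9.5e-05).

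*Gngt2*, the cone gamma subunit (ENSMUSG00000038811, chr11:95837216-95845734, plus strand), ranged from 76.4 to 136 in WT (median 96.9) and from 116 to 203 in rd6 (median 159). Only 1 rd6 library fell within the WT range. It rose 1.61-fold, a log2 fold change of 0.69 ± 0.17 (limma q = 0.00983; exact permutation test, two-sided p = 0.00433), and by 0.64 ± 0.17 (q = 0.0211) without replicate 5. *Gngt2* shares 234 exon bases with *Abi3* on the opposite strand, a gene expressed by microglia, which rose from 91.5 ± 23.2 to 196 ± 53.3 (log2 fold change 1.10 ± 0.20, q = 0.00189), so the reads of the pair are uncertain. Among 18 microglia and macrophage markers, *Abi3* included, 17 rose in limma and 16 in edgeR and DESeq2, beside 11.4% of all genes in limma, with a median log2 fold change of 3.25 and a summed level of 15562 to 21988 in WT against 32003 to 56467 in rd6, and without rd6 replicate 5, 17 rose with a median of 3.20. The most abundant of them, *Csf1r*, the receptor of colony-stimulating factor 1, was the exception at 0.12 (q = 0.385), and *Ctss*, the lysosomal protease cathepsin S, had 3.84. The part of these cells in the rises of *Gngt2*, *Gnb3* and *Cngb3* was not tested.

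The phosphodiesterase subunits were lower or did not pass. *Pde6c*, the cone catalytic subunit (ENSMUSG00000024992, chr19:38132781-38183958, plus strand), ranged from 460 to 728 in WT (median 586) and from 159 to 300 in rd6 (median 197). Every rd6 library, replicate 5 included, was below every WT library, as for 5.67% of all genes. The fall was 2.86-fold, a log2 fold change of -1.52 ± 0.16 (limma q = 2.25e-05; exact permutation test, two-sided p = 0.00216), and 3.10-fold without replicate 5. It ranked 70 from the bottom of all genes tested. *Pde6h*, the inhibitory subunit (ENSMUSG00000064330, chr6:136923832-136968865, plus strand), ranged from 42.1 to 132 in WT (median 74.2) and from 20.9 to 164 in rd6 (median 32.9). Replicate 5 held the highest of its 12 values, and the other rd6 libraries reached at most 53.4. Its log2 fold change of -0.80 ± 0.45 (limma q = 0.231) became -1.19 ± 0.33 (q = 0.0225) without that library. *Pde6h* shares 136 exon bases with *Arhgdib* on the opposite strand, which rose by 1.17 ± 0.26 (q = 0.00565).

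The cone channel is built from the alpha subunit *Cnga3* and the beta subunit *Cngb3*, which is an ion channel subunit that forms no working channel alone. *Cnga3* (ENSMUSG00000026114, chr1:37214434-37263384, plus strand) was near the limit of these libraries, at 3.87 to 13.6 in WT (median 6.97) and 1.91 to 13.5 in rd6 (median 4.99). These values rest on 46 reads in the 6 WT libraries together and on 37 in the 6 rd6 libraries, and the groups overlapped (exact permutation test of log2(value + 1), two-sided p = 0.359). *Cngb3* (ENSMUSG00000056494, chr4:19280850-19510623, plus strand) ranged from 6.64 to 46.6 in WT (median 22.1) and from 145 to 319 in rd6 (median 218). Every rd6 library was above every WT library. In reads, the 6 WT libraries held 152 together and the 6 rd6 libraries 1351. On the log2(value + 1) scale of the fit the difference was 3.21 ± 0.37 (SE, 95% confidence interval 2.41 to 4.02), 9.28-fold, and 8.55-fold without replicate 5. It ranked 52 from the top of 17768 genes by log2 fold change, below *Gnb3*. These values are given as a description with no test, since *Cngb3* was singled out for this change.

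The genes around *Cngb3* were measured for comparison. *Cpne3*, whose gene model lies 8631 bases away, had a log2 fold change of -0.05 (limma q = 0.761). Of the 7 tested genes within 2 Mb of *Cngb3*, *Ggh* was higher by 0.29 (q = 0.000981) and *Gm11868* lower by 0.22 (log2 fold change -0.22, q = 0.0464). The pseudogene *Gm11877* lies within the *Cngb3* span and shares 0 exon bases with it.

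Within each library, *Cngb3* was also set against the other cone genes, as the log2 ratio of the normalized counts with 1 added to each. The difference between genotypes in such a ratio is the change of *Cngb3* less that of the other gene, so it holds the rise for which *Cngb3* was chosen and is given as a description. Against *Cnga3* the ratio ranged from -0.20 to 2.38 in WT (median 1.63) and from 4.39 to 6.44 in rd6 (median 4.94). Against *Gnat2*, the most abundant cone gene per kb in WT, it ranged from -6.69 to -3.72 in WT and from -2.36 to -1.47 in rd6. Against *Gngt2* it ranged from -3.81 to -1.17 in WT and from -0.07 to 1.12 in rd6. For 8 of the 9 other cone genes every rd6 ratio was above every WT ratio, and the difference between the genotype means was widest for *Pde6c* (4.73) and *Opn1mw* (4.36). *Gnb3* was the exception, with -4.30 to -2.32 in WT (median -3.18), -4.38 to -3.56 in rd6 (median -3.66) and a difference of -0.62. *Gnat2*, one of the 8, had a log2 fold change of only 0.10, so such a separation needs no change of the other gene. The share of all genes that would separate from *Cngb3* in this way was not computed.

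**Figure D3:**
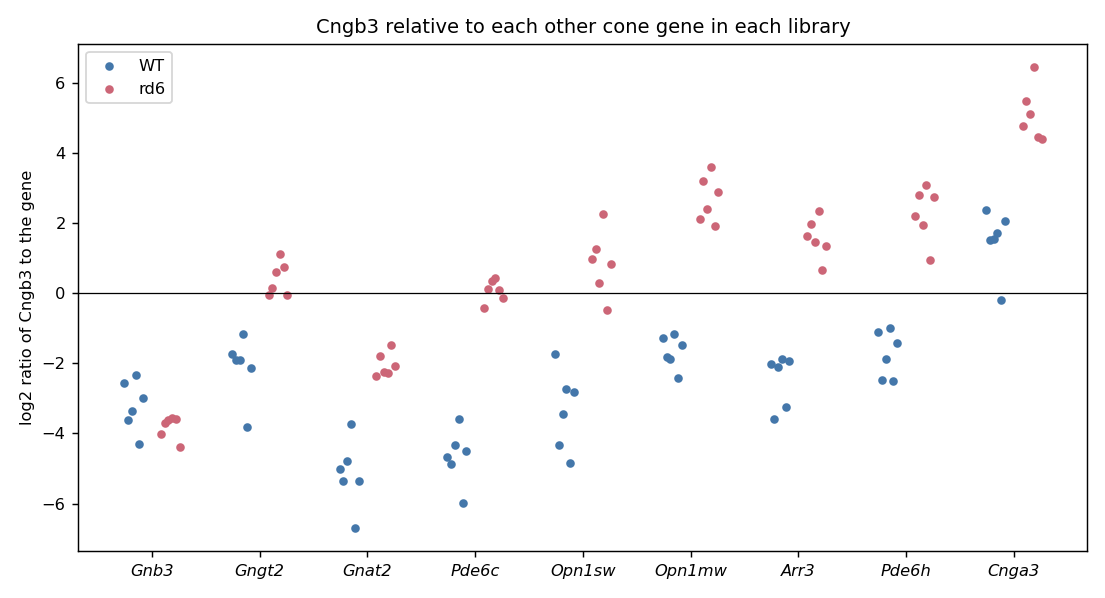
Log2 ratio of *Cngb3* to each of the other 9 cone genes (vertical axis) in the 6 WT (blue) and 6 rd6 (red) libraries, 1 point per library, with equality at the horizontal line. The genotypes are apart for every gene except *Gnb3*, where the rd6 points (-4.38 to -3.56) fall within or next to the WT range (-4.30 to -2.32).

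The cone genes also differed in which libraries were high within a genotype. Correlations of the deviations from the genotype mean over the 12 libraries, which share tissue, depth and preparation, are given as a description. *Pde6h* varied with *Opn1mw* (r = 0.93), *Arr3* (0.92) and *Opn1sw* (0.88), and without rd6 replicate 5 these values were 0.88, 0.83 and 0.77. In WT, replicates 2, 3 and 4 were the highest libraries for *Opn1sw*, *Opn1mw*, *Arr3*, *Pde6h* and *Gnb3*, as they were for 8 of 9 rod counterparts. The share of all genes with this order was not computed. *Gnat2* did not share this order, and its deviations had an r of 0.05 with those of *Gnat1*, its rod paralog. With *Gnat1*, *Gnb3* had an r of 0.72, *Pde6c* 0.67, *Cngb3* 0.53 and *Gngt2* 0.34, and without rd6 replicate 5 these were 0.81, 0.30, 0.50 and 0.18. Among the cone genes *Cngb3* had its highest r with *Opn1mw* (0.68, and 0.69 without that library), followed by *Gnb3* (0.61 and 0.57), *Pde6h* (0.60 and 0.62), *Arr3* (0.57 and 0.54) and *Pde6c* (0.57 and 0.53). Its r was lower with *Opn1sw* (0.31 and 0.16), *Cnga3* (0.31 and 0.17), *Gngt2* (0.17 and 0.095) and *Gnat2* (0.15 and 0.14). In WT, *Cngb3* rests on few reads, 6 in replicate 5 and at most 48 in a library. That lowest value weighs heavily in its r values, which were not computed without WT replicate 5. Among 12873 genes with a mean of at least 100, those that deviated most like *Cngb3* were *Fgfbp3* (r = 0.91), *Tnfaip3*, *Gpr157*, *Malt1* and *Nrip1* (0.88), and those most like *Gnat2* included *Prune1* (0.92), *Lrp11*, *Fndc4* and *Sft2d3* (0.87), over 12 libraries each. As the highest of many correlations over few libraries, these values are high by selection, and they were not compared with a chance level.

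The rod cascade in the same libraries had one sign in limma. All 9 rod counterparts examined had a negative log2 fold change, with a median of -0.75, although that of *Sag* turned to between 0.012 and 0.065 in edgeR and DESeq2. Of them, *Gnb1* passed as lower, a share near the 11.6% of all genes, and without rd6 replicate 5 the median was -1.05 and 7 passed, beside 11.5%. *Gnat1*, rod transducin alpha, ranged from 5794 to 15113 in WT (median 11043) and from 3302 to 14987 in rd6 (median 4122), with a log2 fold change of -0.94 ± 0.35 (limma q = 0.0737), and -1.26 (q = 0.0030) without replicate 5. *Gnb1*, the rod transducin beta subunit that is also widely expressed outside rods, had -0.70 ± 0.06 (q = 2.7e-06). *Cngb1*, the rod partner of *Cngb3* by role, ranged from 1057 to 1670 in WT and from 918 to 1452 in rd6, with -0.29 ± 0.14 (q = 0.169).

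**Figure D4:**
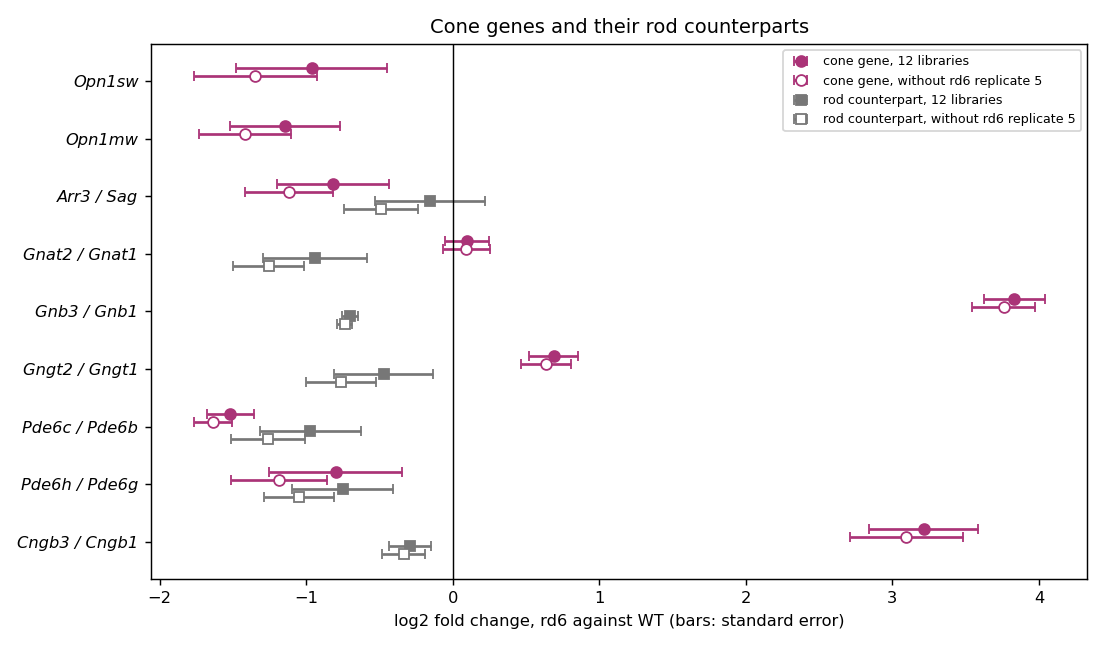
Change from WT to rd6 on the log2 scale, with the standard error as a bar (horizontal axis), for 9 cone genes (circles) and the rod counterparts of 7 of them (squares), over the 12 libraries (filled) and without rd6 replicate 5 (open), with *Cnga3* left out as untested. The rod genes lie to the left of 0 (*Sag*, at -0.16, turned to between 0.012 and 0.065 in edgeR and DESeq2), *Gnat2* lies at 0.10, and *Gngt2* (0.69), *Cngb3* (3.21) and *Gnb3* (3.83) lie to the right.

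The log2 ratio of each cone gene to its rod counterpart, again with 1 added to each value, was compared between genotypes within the libraries, 8 pairs in all, with unadjusted two-sided exact permutation tests. *Pde6h* against *Pde6g*, the inhibitory subunit of rods, differed by -0.05 ± 0.24 (exact p = 0.844), less than the spread between libraries, and *Pde6c* against *Pde6b*, the rod catalytic beta subunit, by -0.54 ± 0.30 (exact p = 0.0996, but 0.0455 without WT replicate 4 and 0.0476 without rd6 replicate 2). *Arr3* fell relative to *Sag*, rod arrestin, by 0.66 ± 0.23 on the log2 scale (exact p = 0.0195) and was below the WT mean ratio in 6 of 6 rd6 libraries.

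The transducin ratios all shifted toward the cone gene, but through different changes. *Gnat2* itself had a log2 fold change of 0.10 and *Gnat1* one of -0.94. The reads of *Gngt2* are uncertain beside *Abi3*, and *Gnb1* is also expressed outside rods. *Gnat2* rose against *Gnat1* by 1.04 ± 0.42 (exact p = 0.0368, above the WT mean in 5 of 6 rd6 libraries; p = 0.0519 to 0.0801 without any 1 of 8 libraries, WT replicates 2 to 4 and rd6 replicates 1 to 4 and 6), *Gngt2* against *Gngt1* by 1.16 ± 0.36 (exact p = 0.0108, 5 of 6) and *Gnb3* against *Gnb1* by 4.53 ± 0.21 (exact p = 0.00216, 6 of 6). In the channel, *Cnga3* against *Cnga1* differed by 0.61 ± 0.32 (exact p = 0.0866, but 0.0433 without WT replicate 5 and 0.0260 without rd6 replicate 4), resting on few *Cnga3* reads, and *Cngb3* against *Cngb1* by 3.50 ± 0.37, given without a test.

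Regulators of the rod and cone cascades were mostly negative in sign. Of 19 examined, 6 passed as lower and 17 had a negative sign, with a median log2 fold change of -0.71, and without rd6 replicate 5 the median was -0.78 and 15 passed, beside 11.6% and 11.5% of all genes called lower and 49.3% negative. Those that passed were *Grk1*, the opsin kinase (-1.41, limma q = 0.0191), *Rgs9bp* and *Gnb5*, parts of the complex that switches transducin off (-1.45, q = 0.0101, and -0.35, q = 0.00531), the cation exchanger *Slc24a1* (-0.78, q = 0.000119), the potassium channel subunit *Kcnv2* (-0.73, q = 0.00298), and *Unc119*, a carrier of transducin alpha (-0.30, q = 0.0202).

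Of 6 genes otherwise linked to cones, 5 could be tested, and *Otop3* was too low. *Sall3*, a transcription factor of cone development, was at 0 to 13.5 in WT and 15.5 to 40.6 in rd6 (log2 fold change 2.65 ± 0.57, limma q = 0.00488). *Kcne2*, a potassium channel subunit, rose by 1.11 (q = 3.35e-05), and *Rxrg*, the retinoid X receptor gamma of cones, rose by 0.68 (q = 0.0188). *Thrb*, the thyroid hormone receptor that directs *Opn1mw* expression in cones, was lower by a small amount (log2 fold change -0.33, q = 0.0112). In rd6 replicate 5, *Kcne2* (421) and *Thrb* (1026) were the lowest of the rd6 group, unlike most of the cone cascade genes. Without rd6 replicate 5, 3 of the 5 passed as higher and 1 as lower. The counts of the other cell type lists stand beside 11.4% of all genes called higher and 11.6% lower. The 14 rod markers had a median log2 fold change of -0.90 and 4 passed as lower (*Slc24a1* and *Gnat1* most abundant), and without rd6 replicate 5 the median was -1.20 and 12 passed. The 12 RPE markers had a median of -0.27 with 5 lower (*Ttr* and *Rgr* most abundant), and the 8 Müller glia markers one of -0.31 with 2 higher and 2 lower (*Apoe* and *Rlbp1*). Without that library these medians were -0.24 and -0.31, with 5 RPE markers lower and 1 Müller glia marker higher and 2 lower. Of the 6 amacrine and horizontal cell markers tested, 0 passed in limma, edgeR or DESeq2 and 0 had an unadjusted limma p below 0.05, with a median of -0.44 (*Slc6a9* and *Gad1*), and the 7 ganglion cell markers tested had one of -0.58 with *Rbpms* higher (*Rbpms* and *Nefl*). Without rd6 replicate 5 the medians were -0.85 and -1.15, 1 amacrine and horizontal cell marker (*Gad1*, -1.003, limma q = 0.0112) and 4 ganglion cell markers were lower, and 1 ganglion cell marker was higher. The part of these cells in the levels of the cone genes was not tested.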

How the data were processed

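RPE RNA of 6 WT and 6 rd6 mice was sequenced as stranded total-RNA read pairs. Alignment to mm10 and counting on genes were done by the authors with Rsubread (standard parameters, so that the use of strand is not stated), and each count was divided by the DESeq2 size factor of its library. The deposited signal per gene and library is this normalized count, and the size factors differed by at most 1.23 times. The authors also deposited their own DESeq2 fold changes, test statistics and p-values, which were not used. Every value is a whole multiple of 1 read (tolerance 0.01), so reads were recovered. They sum to a median of 30017490 per WT and 30868902 per rd6 library. Reads of a gene vary between libraries beyond counting error, and totals over libraries are given as a description. Of 28596 entries, 5 repeats were dropped. Within-group library pairs differed by a chi-square of at least 8.86 per gene, so none was taken as a copy.

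The main test was limma 3.58.1 (R 4.3.3, eBayes with trend) on log2(value + 1) for the 17768 genes that averaged 10 or more, called at a Benjamini-Hochberg q below 0.05. This scale understates the change of low genes. edgeR 4.0.16 and DESeq2 1.42.0 on recovered reads, other pseudocounts, filters and scalings, a replicate block and leaving out each library were alternatives. Ratios and single genes were compared with exact permutation tests. P-values measure the spread between libraries, 1 per pair of eyes. Positions and exon unions are from GENCODE M21 (GRCm38), which matched 28510 genes, and promoters are from RefSeq (GRCm38.p6).

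Named are the 10 cone genes, 9 rod counterparts, *Mfrp*, *Xist*, regulators and cone-linked genes past the threshold, the 2 most abundant genes of each marker list, neighbors, and the 5 genes most like *Cngb3* and *Gnat2*. *Rpe65*, *Best1*, *Ctss* and *Otop3* come from the marker lists. A few genes covered by these criteria are left unreported, and the lists and counts leave them out. The genes and lists were chosen with earlier results of these data known.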

Additional observations from a re-analysis of the deposited data

Results flagged for a closer look

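In rd6 replicate 5, 5 cone genes stood apart from the other 5 rd6 libraries, by a gap, relative to the range of the group, past the 95% limit of Dixon's test for 6 samples. They were *Opn1sw* at 442, *Opn1mw* at 84.0, *Arr3* at 201, *Pde6h* at 164 and *Cnga3* at 13.5 normalized counts, each the highest of the rd6 group. In the same library 8 rod counterparts stood apart in the same way: *Sag* at 6942, *Gnat1* at 14987, *Pde6a* at 2519, *Pde6b* at 1822, *Pde6g* at 2419, *Cnga1* at 612, *Gngt1* at 1589 and *Gnb1* at 13500.5, again the highest of the rd6 group. In all, 13 of 38 gene and genotype groups held such a value, and all 13 were in this library. By chance about 5% of groups would, and genes of 1 library are not independent. *Pde6c* and *Gnb3* were also highest of the rd6 group in this library and fell just short of the limit, with gaps of 0.622 and 0.620 of the range beside 0.651 for *Cnga3*, the lowest of the 5 past it. The gap of *Cngb3* was 0.384, and *Gnat2* and *Gngt2* were not highest there.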

How the results depend on the processing

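The calls of *Gnb3* and *Pde6c* held under every alternative run, *Cngb3* did not enter the fit that required at least 10 in every library, and *Cngb3* and *Gnb3* stayed higher throughout (log2 fold changes from 2.75 to 3.43 and 3.74 to 4.00). The number of cone genes called lower was 1 in place of 2 with no filter, in edgeR with TMM, RLE or upper-quartile scaling and in limma without the trend, where *Opn1mw* had a q between 0.0525 and 0.0873, and it was 2 in DESeq2. Leaving out 1 library gave 1 to 5, the 5 without rd6 replicate 5. The log2 fold change of *Sag* turned from -0.16 to 0.021 (edgeR TMM), 0.014 (RLE), 0.065 (upper quartile) and 0.012 (DESeq2), and that of *Gnat2* ranged from -0.00097 (without rd6 replicate 4) to 0.20 over libraries left out. With a pseudocount of 10, *Pde6h* against *Pde6g* turned to 0.078 (exact p = 0.699) and *Cnga3* against *Cnga1* passed at 0.81 (exact p = 0.0130). This pseudocount is larger than the mean of *Cnga3* in WT (7.79) and rd6 (5.92). It therefore mutes the change of *Cnga3* itself, and that ratio mostly follows *Cnga1*. Over libraries left out, the cone to rod differences ranged from 0.87 to 1.35 (*Gnat2*), -0.67 to -0.37 (*Pde6c*), -0.18 to 0.092 (*Pde6h*), 0.44 to 0.79 (*Cnga3*), -0.79 to -0.54 (*Arr3*) and 0.97 to 1.40 (*Gngt2*). The cause of these shifts was not tested. Same-numbered WT and rd6 libraries did not deviate together (correlations from -0.74 to 0.31), so the numbers pair nothing. With the replicate block 1453 genes were higher and 1489 lower in place of 2024 and 2062, 1 cone gene was lower (*Gngt2* was at q = 0.0519 and *Opn1mw* at 0.107), and the differences of *Arr3* (-0.66), *Gnat2* (1.04) and *Gngt2* (1.16) had p = 0.0625, 0.156 and 0.0625 in exact sign-flip tests, whose smallest p is 0.03125. Depth limits *Cnga3*, with at most 15 reads in a library, and *Cngb3* in WT, with as few as 6.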
